A study of Mus musculus with 20 samples.

Results

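The nuclear genes that encode subunits of the mitochondrial oxidative phosphorylation chain were followed in mouse macrophages given lipopolysaccharide (LPS), a cell wall component of Gram-negative bacteria. Members were chosen by gene name alone: every non-control probe whose gene name begins as those of complex I (Nduf followed by a, b, c, s or v and a digit), complex II (Sdha to Sdhd), complex III (Uqcr), complex IV (Cox4 to Cox8) or complex V (Atp5). This gave 128 of 39429 probes, for 85 of 30119 genes. A probe was kept where 3 or more arrays had it well above background in either channel, and 81 member genes passed: 36 of complex I, 4 of complex II, 8 of complex III, 16 of complex IV and 17 of complex V. The 4 that did not pass were Ndufa4l2, Cox7b2, Cox8b and Cox8c, of which Cox8b and Cox8c were well above background on no array. The name rule also takes in 3 kept genes whose RefSeq symbol is no longer that of a subunit: Cox4nb (now Emc8, of the endoplasmic reticulum), Atp5s (now Dmac2l) and Atp5sl (now Dmac2). Complexes were assigned by name too, so Ndufa4 counts under complex I and Cox7a2l under complex IV, though neither is a core subunit there.

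Complexes I to IV pass electrons from NADH and succinate to oxygen and, except for complex II, pump protons across the inner mitochondrial membrane. Complex V, the ATP synthase, lets the protons flow back and makes ATP. Macrophages given LPS are known for a shift toward glycolysis, an induction of Acod1 (itaconate synthesis, which inhibits complex II) and a reduced use of the respiratory chain.

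The cells were bone-marrow-derived macrophages of C57BL/6 mice, grown for 6 days in medium with M-CSF and then kept in serum-free medium. Each of the 20 arrays with 2 colours compared cells given 200 ng/mL Salmonella LPS with time-matched cells of that genotype left untreated. Genotypes were wild-type, TRIF -/- (TRIF-KO), MyD88 -/- (MyD88-KO) and MyD88/Trif -/- (double-KO). MyD88 and TRIF are the adapter proteins through which the LPS receptor signals, so the double-KO cells served as the background of the measurement. Each genotype had 1 array at each of 1, 2, 4, 8 and 16 h. A genotype therefore has 5 arrays but no replicate at any time, and the labels do not say whether arrays came from separate animals, so the p-values below measure only the spread between these arrays.

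The arrays detected 56.5% to 70.3% of all probes above background and at least 122 of the 128 member probes each, with none of the member probes saturated. In untreated cells all 9 kept macrophage markers were above background on every array, with a summed level of log2 19.5 to 20.2. Detection alone did not set macrophages apart. All 9 neutrophil and granulocyte precursor markers were above background on every array of wild-type, TRIF-KO and MyD88-KO, and 8 of 9 in double-KO. Summed levels were 16.8 to 17.6 for B cell and 17 to 17.5 for dendritic cell markers. The summed level of 9 neutrophil and granulocyte precursor markers was higher on the MyD88-KO arrays (log2 17.3 to 17.6) than on the others (16.3 to 17), and its part in the MyD88-KO results was not tested. Transcripts of the targeted genes checked the labels only in part. Untreated Ticam1, which encodes TRIF, was at log2 7.28 ± 0.04 (SD, n = 5) in double-KO cells, but at 10.81 ± 0.28 (n = 5) in the arrays labelled TRIF-KO against 10.65 ± 0.19 (n = 5) in wild-type. Myd88 was between 14.01 and 14.45 in all groups. Where these probes lie relative to the deleted parts is not given in the sources used here, so TRIF-KO and MyD88-KO below are groups as labelled, with the loss of either adapter alone not shown by its transcript. The LPS-treated RNA carried Cy5 on 19 arrays, and the sign of the dye-swapped one, MyD88-KO at 2 h, was turned. The wild-type arrays of 1 to 8 h shared the first slide and that of 16 h lay on the second, while the 8 h and 16 h arrays shared a slide in each of the other genotypes. Neither wild-type nor TRIF-KO shared a slide or a scan day with double-KO, so for those pairs batch and genotype cannot be told apart.

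Promoters of members called higher late in the course are shown first, because one sequence stood before some of them. RefSeq (GRCm38.p6) promoter windows were found for 67 of the 81 members, and the 250 bases before each transcription start were searched on both strands for the NRF1 (nuclear respiratory factor) recognition sequence, GCGCA and GCGC with any 1 base between them, for CCGGAAG, an ETS family core that GABPA binds, and for AAGATGGC, a YY1 core. The NRF1 letters stood before 13 of the 67 members (19.4%), against 4.23% of all 27025 genes with a window. Among the 23 with a window of the 27 members called higher at 16 h than at 8 h, described below, 9 had it (39.1%), against 4 of 44 other members (9.09%). This split comes from a contrast chosen after the values had been seen. No member was called in it without the wild-type arrays, without the TRIF-KO arrays or with double-KO added, so the split is not a stable one. The ETS letters were found before 12 of 67 members (17.9%) against 7.83% of all genes, but before 2 of those 23 (8.7%). YY1 letters were found before 2 members (2.99%, all genes 1.83%). These counts are descriptions: promoters rich in G and C hold such letters more often, and no binding was measured. Printed are the 150 bases before the start for the 6 members with the highest 16 h value among those 9, 5′ to 3′ with the matched letters of any of the motifs in capitals.
Ndufa8 (complex I, chr2:36049339-36049488, minus strand): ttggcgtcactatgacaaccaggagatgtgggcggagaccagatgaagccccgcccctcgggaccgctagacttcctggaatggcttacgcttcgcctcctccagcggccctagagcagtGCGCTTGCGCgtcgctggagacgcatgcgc
Atp5c1 (complex V, chr2:10080433-10080582, minus strand): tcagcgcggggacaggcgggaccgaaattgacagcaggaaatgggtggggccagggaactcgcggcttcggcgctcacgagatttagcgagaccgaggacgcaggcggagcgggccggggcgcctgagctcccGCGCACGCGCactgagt
Ndufa5 (complex I, chr6:24527691-24527840, minus strand): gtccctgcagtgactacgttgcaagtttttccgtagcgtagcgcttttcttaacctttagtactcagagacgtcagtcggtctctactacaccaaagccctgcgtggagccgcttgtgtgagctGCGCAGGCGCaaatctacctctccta
Ndufb4 (complex I, chr16:37654369-37654518, minus strand): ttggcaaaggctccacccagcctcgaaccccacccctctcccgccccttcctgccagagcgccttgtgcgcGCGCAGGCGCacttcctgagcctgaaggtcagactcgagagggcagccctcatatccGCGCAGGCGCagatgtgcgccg
Ndufs5 (complex I, chr4:123718187-123718336, minus strand): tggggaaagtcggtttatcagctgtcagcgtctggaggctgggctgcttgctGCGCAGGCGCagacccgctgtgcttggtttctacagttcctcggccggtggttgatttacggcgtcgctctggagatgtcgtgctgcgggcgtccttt
Sdhd (complex II, chr9:50603850-50603999, minus strand): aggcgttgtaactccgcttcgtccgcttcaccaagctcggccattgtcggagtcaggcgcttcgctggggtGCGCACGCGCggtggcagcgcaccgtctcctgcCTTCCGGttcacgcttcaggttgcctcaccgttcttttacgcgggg
In 5 of these 6 windows the capitals are NRF1 letters alone, and in that of Sdhd, a membrane anchor of complex II, they also mark an ETS match.

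Through the first 8 h the median of the members lay below 0 in every genotype that kept an adapter. In TRIF-KO and MyD88-KO at 1 h and 2 h it did so by about as little as double-KO medians lay from 0. The median log2 ratio of LPS over untreated cells over the 81 genes was -0.17, -0.23, -0.2, -0.42 and 0.14 at 1, 2, 4, 8 and 16 h in wild-type. In TRIF-KO it was -0.06, -0.02, -0.16, -0.29 and 0.14, and in MyD88-KO -0.04, -0.05, -0.09, -0.15 and 0.11. In double-KO the 5 medians lay between -0.01 and 0.05, and over all 22035 genes they lay between -0.02 and 0.01 on every array. At 8 h, 68 of 81 members (84%) were below 0 in wild-type, 59 (72.8%) in TRIF-KO, 50 (61.7%) in MyD88-KO and 42 (51.9%) in double-KO. In a mixed RNA extract, less RNA per cell and fewer cells of a type cannot be told apart.

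The complexes did not share this course. At 8 h in wild-type, the median log2 ratio was -0.61 for complex I (NADH dehydrogenase), -0.36 for complex II (succinate dehydrogenase), -0.42 for complex V, -0.19 for complex III (cytochrome bc1) and -0.07 for complex IV (cytochrome c oxidase). In MyD88-KO the same medians were -0.28, -0.39, -0.17, 0.11 and 0.31. Complex I lay below complex III on 15 of 15 arrays of the genotypes with an adapter, by 0.02 to 0.42, and below complex IV on 12 of 15. Complex V also lay below complex III on 15 of 15. Complexes I and II were not ordered, with complex I the lower on 8 of 15. In double-KO the medians were -0.04 to 0.03 for complex I, -0.01 to 0.04 for complex III and -0.02 to 0.08 for complex IV. Complex I lay below complex IV there too at 1, 2, 4 and 16 h, and below complex III at 1, 2 and 8 h. Both orders were thus also seen without an adapter. The double-KO medians of complexes I and III were -0.01 and 0.03 at 1 h, -0.04 and -0.01 at 2 h and -0.02 and 0.04 at 8 h. At 4 h (0 and -0.01) and 16 h (0.03 and 0.02) complex I was the higher. All 15 arrays of the genotypes with an adapter share probes and many share a slide, so these are counts without a test. In all 3 of those genotypes at 8 h, 26 of 36 complex I genes (72.2%), 4 of 4 complex II genes, 3 of 8 complex III genes, 3 of 16 complex IV genes and 8 of 17 complex V genes were below 0, beside 30.4% of all genes. The only complex I gene above 0 in all 3 was Ndufs4. Of complex IV, 6 of 16 genes were above 0 in all 3 (Cox4i2, Cox6a2, Cox6b1, Cox6b2, Cox7a2 and Cox7c). That share of 37.5% is near the 28.3% of all genes and is not read as an excess. Cox6b1 and Cox6b2 were above 0 in double-KO too (0.04 to 0.26 and 0.07 to 0.25). At 8 h Cox6b2 was at 0.07 in wild-type and at 0.16 in double-KO.

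**Figure D1:**
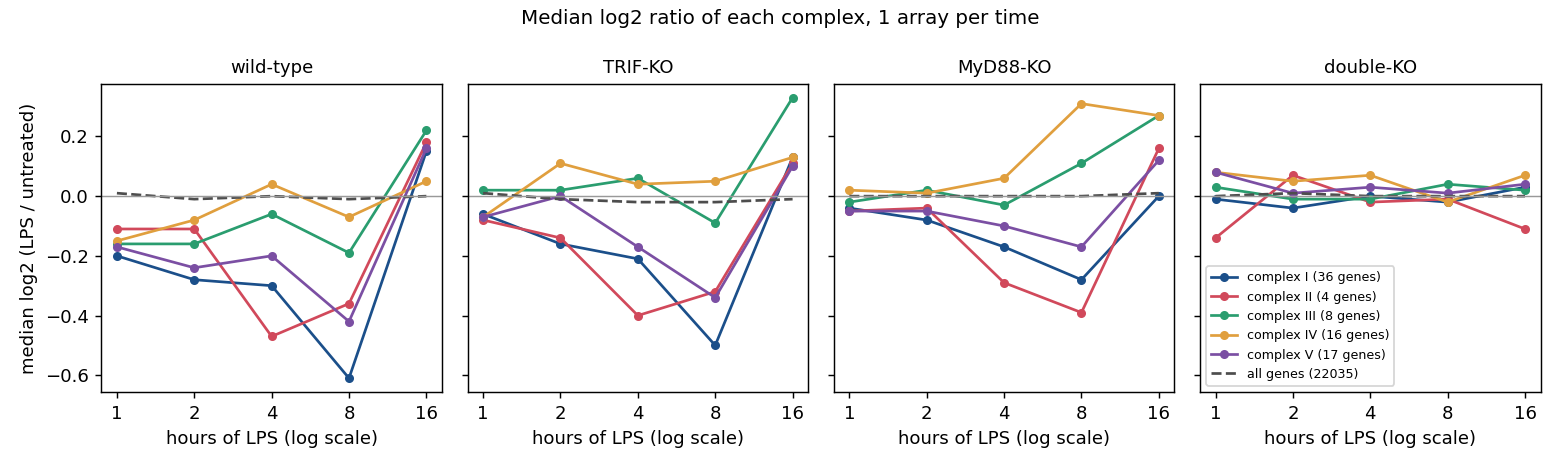
Median log2 ratio of LPS-treated over untreated cells (y axis) against hours of LPS (x axis, log scale) for the genes of each complex, 1 panel per genotype and 1 array per point, with the median of all genes dashed. Complex I reached -0.61 at 8 h in wild-type and 0.15 at 16 h, while complex IV stayed between -0.15 and 0.05 there.

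The comparison of the mean response over the 5 times with that of double-KO asks which responses need an adapter. In wild-type, 12 of 81 members had a lower log2 ratio than in double-KO and none a higher one. The test was limma with Benjamini-Hochberg adjustment over all genes at 0.05. That is 14.8% of the members, where 6.05% of all genes were called lower and 5.92% higher. They were 5 of complex I (Ndufa3, Ndufa7, Ndufb5, Ndufb8, Ndufv2), Sdhc of complex II, Cox4i1 and Cox4nb under the complex IV rule, and Atp5d, Atp5e, Atp5g2 and Atp5sl under the complex V rule. The median difference over the members was -0.2, against -0.02 over all genes. The count depends on the fit and on single times: 1 member was called with no time term (257 of all genes), 0 with slide as a random block (140 of all genes), and 0 without the 2 h, the 4 h or the 8 h arrays, but 23 without the 16 h arrays. With slide as a fixed block no gene of the whole array passed and the member median turned to 0.12. Of the 28 genes with several kept probes, 4 had probes of opposite sign in this comparison, among them Ndufb5 (-0.49, -0.45, -0.04 and 0.06).

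Cox4i1, the ubiquitous isoform of a nuclear subunit that joins the catalytic core of cytochrome c oxidase, had log2 ratios of -0.21, -0.86, -0.28, -0.56 and -0.05 over the 5 times in wild-type. In double-KO they were 0.28, 0.03, 0.06, -0.03 and 0.17, so the genotypes did not overlap. The difference was -0.49 ± 0.14 (SE, adjusted p = 0.036, limma).
Ndufb8, an accessory subunit of the complex I membrane arm, had -0.07, -0.66, -0.48, -0.98 and 0.51 in wild-type and 0.12 to 0.24 in double-KO. The groups overlapped only through the 16 h array, which was the highest of all (difference -0.52 ± 0.16, adjusted p = 0.045, limma).
Atp5g2, one of the 3 genes for the same c-ring subunit of the ATP synthase, had -0.16, -0.11, -0.46, -1.08 and -0.65 in wild-type and -0.06 to 0.08 in double-KO, with no overlap (difference -0.49 ± 0.15, adjusted p = 0.048, limma).
Atp5e, the epsilon subunit of the ATP synthase's central stalk, had -0.44, -0.58, -0.54, -0.7 and -0.03 in wild-type and -0.05 to 0.12 in double-KO. Its difference of -0.48 ± 0.11 had the smallest adjusted p among the members (0.017, limma).
Atp5sl, which is now named Dmac2 for its part in building the distal membrane arm of complex I, had the lowest difference, -0.78 ± 0.22 (adjusted p = 0.034, limma). Its wild-type log2 ratios of 0.07, -0.46, -1.48, -1.55 and -0.67 began at the level of double-KO (-0.13 to 0.07) and were below it from 2 h on.

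In the groups labelled TRIF-KO and MyD88-KO, few members passed the same test. Against double-KO, 2 members differed in TRIF-KO, where 6.61% of all genes were called: Atp5sl was lower (-0.83 ± 0.22, adjusted p = 0.038, limma) and Cox7c, a small subunit of complex IV, higher (0.36 ± 0.1, adjusted p = 0.043). In MyD88-KO 1 member differed, where 9.97% of all genes were called: Cox5a of complex IV was higher by 0.51 ± 0.15 (adjusted p = 0.048, limma). Its MyD88-KO log2 ratios were -0.15, 0.01, 0.04, 0.78 and 0.69, against -0.18 to -0.33 in double-KO and -0.73 to 0.05 in wild-type. The MyD88-KO values at 8 h and 16 h stood above all wild-type and double-KO values. No member was called for MyD88-KO when its dye-swapped 2 h array was left out, and none for either genotype with no time term or without the arrays of 2, 4, 8 or 16 h (4 for each without those of 1 h). Wild-type, TRIF-KO and MyD88-KO share the double-KO arrays, so these counts are not independent. The difference between wild-type and either single knockout was not tested. Member medians were -0.12 in TRIF-KO and -0.06 in MyD88-KO.

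Some members carried a ratio that double-KO cells had too. Atp5a1, the catalytic-domain alpha subunit of the ATP synthase, was at -0.12, -0.12, -0.35, -0.22 and -0.18 in double-KO with LPS in Cy5. On the only array with LPS in Cy3 it was at 0.44, the highest of its 20 values. Atp5b, the beta subunit, was by contrast above 0 in 4 of 5 wild-type arrays (0.44, -0.04, 0.12, 0.36 and 0.51) and in all of double-KO (0.04 to 0.12). Ratios of single genotypes against 0 are therefore given here without a test.

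Between 8 h and 16 h the members moved back up. A contrast of the 16 h with the 8 h ratio in the 3 genotypes with an adapter (15 arrays, genotype as a block), chosen after the values had been seen, called 27 of 81 members higher at 16 h and none lower (limma, adjusted over all genes), where 8.26% of all genes were called higher and 2.74% lower. Of the 27, 17 of 36 were in complex I, 3 of 4 in complex II, 2 of 8 in complex III, 1 of 16 in complex IV and 4 of 17 under the complex V rule, of which Atp5c1 and Atp5h are ATP synthase subunits and Atp5s and Atp5sl, as named above, are not. The median change over the members was 0.39, against 0 over all genes, and the 16 h ratio was the higher in all 3 genotypes for 58 of 81 members (71.6%), against 26% of all genes. Median changes were 0.57 in wild-type, 0.39 in TRIF-KO, 0.2 in MyD88-KO and 0.04 in double-KO. The TRIF-KO and MyD88-KO changes were each measured within 1 slide, the wild-type change between slides. Because each genotype gives 1 change per gene, the calls rest on few arrays: 34 members were called without the MyD88-KO arrays, but 0 without the wild-type arrays and 0 without the TRIF-KO arrays, where 5 and 4 of all genes passed and the member medians were 0.29 and 0.35. With double-KO added it was 0 too, where 1 of all genes passed. Of the 28 genes with several kept probes, 6 had probes of opposite sign in this contrast, 1 of them among the 9 that were called.

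**Figure D2:**
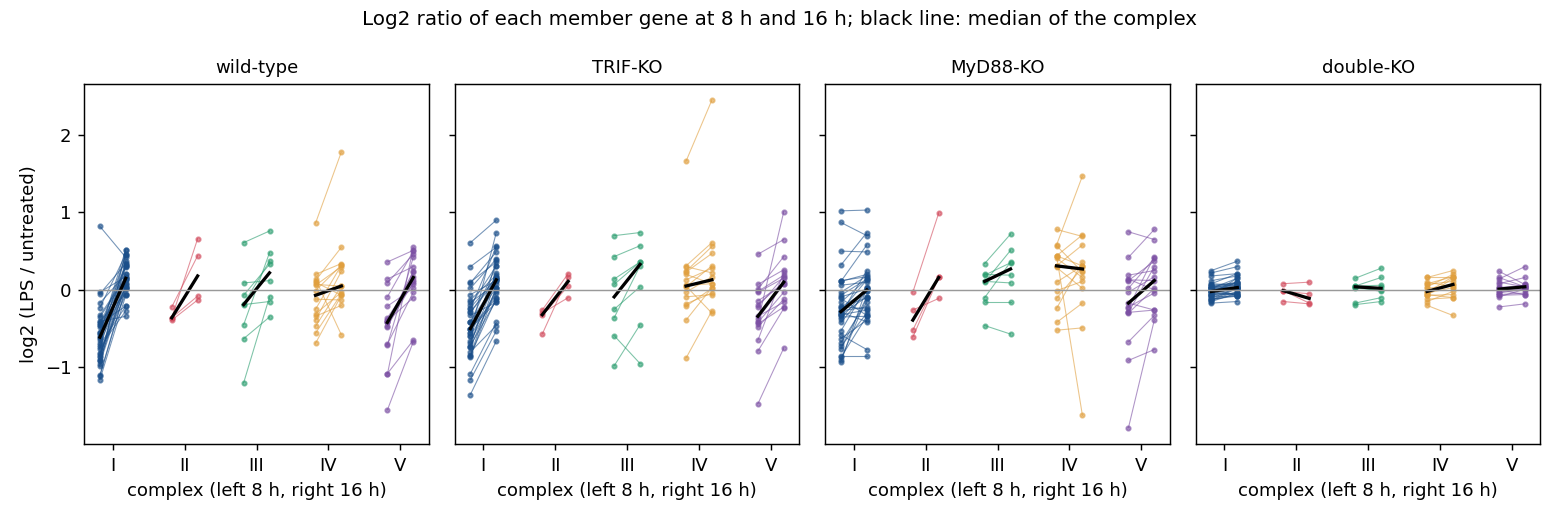
Log2 ratio of LPS-treated over untreated cells (y axis) of each member gene at 8 h (left end of a line) and 16 h (right end), grouped by complex, 1 panel per genotype, with black lines for the medians. In wild-type the complex I median went from -0.61 to 0.15, with 35 of 36 genes higher at 16 h, and in double-KO the lines are short and near 0.

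Atp5s and Ndufb3 had the highest 16 h values relative to 8 h. Ndufb3, an accessory subunit of the complex I membrane arm, had log2 ratios at 8 h and 16 h of -0.9 and 0.35 in wild-type, -0.56 and 0.74 in TRIF-KO, -0.9 and -0.1 in MyD88-KO, and 0.08 and 0.21 in double-KO. Each of the genotypes with an adapter was higher at 16 h, by 1.11 ± 0.17 in the fit (SE, adjusted p = 0.0038, limma).
Ndufs7, which carries the iron-sulphur cluster that hands electrons to ubiquinone, had -0.91 and 0.07 in wild-type, -0.59 and 0.22 in TRIF-KO, and -0.93 and 0.03 in MyD88-KO (0.92 ± 0.14, adjusted p = 0.0037).
Atp5c1, the rotating gamma subunit of the ATP synthase, had -0.71 and 0.42 in wild-type, -0.65 and 0.23 in TRIF-KO, and -0.29 and 0.3 in MyD88-KO (0.87 ± 0.13, adjusted p = 0.0034).
Of complex II, Sdhb, the iron-sulphur subunit, was higher at 16 h by 0.84 ± 0.17 (adjusted p = 0.013) and Sdhd by 0.69 ± 0.16 (adjusted p = 0.021). The flavoprotein Sdha was higher by 0.48 ± 0.12 (adjusted p = 0.029). The other membrane anchor, Sdhc, did not pass (0.2 ± 0.08, adjusted p = 0.14).
Among further named subunits of the other complexes, Ndufv1, the NADH-binding subunit, passed (0.53 ± 0.12, adjusted p = 0.023), whereas Ndufs1 (0.25 ± 0.14) and Ndufs3 (0.65 ± 0.22) did not. Neither did Uqcrc1 (0.11 ± 0.12) and Uqcrfs1 (0.08 ± 0.12) of complex III, Cox4i1 (0.2 ± 0.2), Cox5a (0.15 ± 0.18) and Cox6a1 (0.33 ± 0.15) of complex IV, or Atp5a1 (0.28 ± 0.18) and Atp5b (0.24 ± 0.11) of complex V.

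The late change was then read in each channel. From 8 h to 16 h the median log2 level of the members in the LPS channel changed by 0.5 in wild-type, 0.31 in TRIF-KO, 0.08 in MyD88-KO and -0.1 in double-KO. In the untreated channel it changed by -0.06, -0.1, -0.14 and -0.11. The LPS channel thus changed by more than the untreated one in wild-type and TRIF-KO, and by less in MyD88-KO. Untreated complex I genes were themselves lower at 16 h than at 1 h in all genotypes, by a median of -0.19 in wild-type, -0.38 in TRIF-KO, -0.35 in MyD88-KO and -0.5 in double-KO, while the median of all genes moved by -0.03 to 0.03. A fixed untreated reference would therefore give other ratios than the matched one used here.

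**Figure D3:**
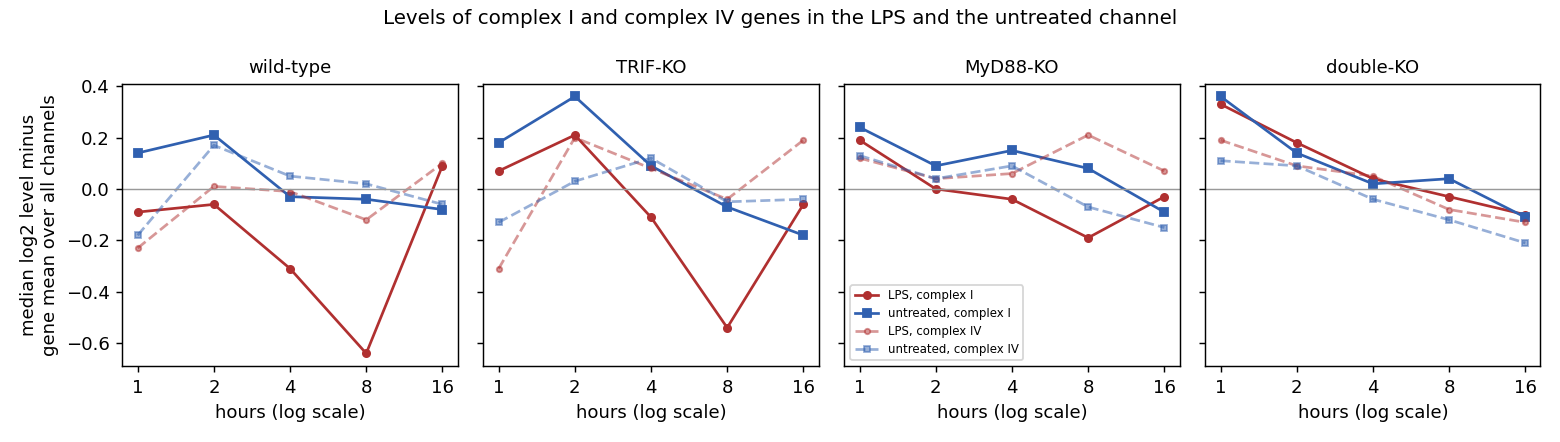
Median log2 level of complex I (solid) and complex IV (dashed) genes, each gene relative to its own mean over all channels (y axis), against hours (x axis, log scale), for LPS-treated (red) and untreated cells (blue), 1 panel per genotype. The LPS-treated complex I level is lowest at 8 h in wild-type (-0.64) and TRIF-KO (-0.54), while the untreated level shows no such dip.

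Over the whole course, a slope of the log2 ratio per doubling of time was positive for 5 members in wild-type and negative for none, where 2.9% of all genes were called positive and 2.58% negative. In TRIF-KO 6 were positive and 1 negative (3.3% and 3.73% of all genes), and in MyD88-KO 9 were positive and 1 negative (5.51% and 4.76%). Slide and time overlapped here. The TRIF-KO arrays of 1 to 4 h lay on 1 slide and those of 8 h and 16 h on another. The MyD88-KO arrays of 1 h and 2 h differed from the later ones in both slide and scan day. Early against late times can therefore not be told apart from batch in these slopes. With slide as a fixed block no member slope was called. In double-KO none of the members and none of all genes (0%) was called by limma, with 56 of all genes and 0 members at an unadjusted p under 0.05. Uqcrq and Cox6a2 had a positive slope in all 3 genotypes with an adapter. Of the differences of slopes from double-KO, the test passed 1 member, Cox6a2 in TRIF-KO (0.49% of all genes were called there). None was called for wild-type (0.54% of all genes; 6 members at an unadjusted p under 0.05) or MyD88-KO (1.93%; 12 members at an unadjusted p under 0.05). With 1 time left out, the slopes called 2 to 15 members in wild-type, 2 to 12 in TRIF-KO and 3 to 10 in MyD88-KO (15 in wild-type and 12 in TRIF-KO without the 16 h arrays), and the slope difference of TRIF-KO was lost without the 2, 4, 8 or 16 h arrays.

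Cox6a2, the heart and muscle isoform of a complex IV subunit, had the highest slope among the called members of each of these genotypes. Its log2 ratios were 0.14, -0.25, 0.36, 0.86 and 1.78 in wild-type, -0.07, -0.33, 0.77, 1.66 and 2.45 in TRIF-KO, and -0.11, -0.18, 0.13, 0.58 and 1.47 in MyD88-KO, against -0.15 to 0.12 in double-KO. From 4 h on every array of the 3 genotypes lay above all of double-KO, and TRIF-KO was the highest at each of those times. The slopes per doubling of time were 0.44 ± 0.1 in wild-type, 0.7 ± 0.1 in TRIF-KO and 0.39 ± 0.1 in MyD88-KO (adjusted p = 0.022, 0.0017 and 0.026, limma), and TRIF-KO differed from double-KO by 0.74 ± 0.14 (adjusted p = 0.039). The untreated level moved too: over the 5 times it was at log2 8.9, 9.4, 9.5, 9.8 and 10.2 in wild-type cells and at 9, 8.8, 8.9, 8.5 and 8.2 in double-KO cells. Cox6a1, the isoform found in most tissues, had ratios of 0.46, 0.47, -0.08, 0.2 and 0.34 in wild-type and no called slope.

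Ndufs4, an accessory subunit of the NADH-oxidizing arm of complex I, went against its complex. Its log2 ratios were -0.09, 0.1, 0.37, 0.82 and 0.42 in wild-type, 0.01, 0.09, 0.15, 0.61 and 0.9 in TRIF-KO, 0.05, -0.08, 0.17, 1.02 and 1.03 in MyD88-KO and -0.02 to 0.07 in double-KO. Its slope passed in TRIF-KO (0.23 ± 0.06, adjusted p = 0.042, limma) and MyD88-KO (0.31 ± 0.06, adjusted p = 0.0078) but not in wild-type (0.17 ± 0.06, adjusted p = 0.14), where it was highest at 8 h. Ndufs3, a core subunit of complex I, had -0.26, -0.7, -0.86, -0.85 and 0.15 in wild-type.

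In complex III, Uqcrq, a small subunit of the ubiquinone-binding part, had 0.02, 0.14, 0.46, 0.61 and 0.76 in wild-type, with slopes of 0.19 ± 0.03, 0.18 ± 0.03 and 0.17 ± 0.03 in wild-type, TRIF-KO and MyD88-KO (adjusted p = 0.0046, 0.0077 and 0.0064, limma). Uqcrb also had a positive slope in wild-type (0.16 ± 0.04) and TRIF-KO (0.18 ± 0.04), whereas the hinge protein gene Uqcrh had a negative one in TRIF-KO (-0.27 ± 0.07, adjusted p = 0.029). In complex IV, Cox7a2 passed in wild-type (0.22 ± 0.04) and MyD88-KO (0.18 ± 0.04), and Cox5a (0.25 ± 0.07) and Cox5b (0.15 ± 0.04) in MyD88-KO. In complex V, Atp5j, of the stalk that holds the synthase's head in place, passed in wild-type (0.19 ± 0.05) and MyD88-KO (0.24 ± 0.05), and Atp5f1 of the same stalk in MyD88-KO (0.24 ± 0.05). The remaining calls were Ndufa4 (0.18 ± 0.04) and Atp5g1 (0.19 ± 0.05) in TRIF-KO, and Ndufa11 (0.24 ± 0.06) and Atp5g2 (-0.28 ± 0.07) in MyD88-KO. Ndufa11 lies 0.4 Mb from Ticam1 on chromosome 17.

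The 3 genes for one c-ring protein took different courses. At 8 h Atp5g1, Atp5g2 and Atp5g3 had log2 ratios of -0.36, -1.08 and 0.09 in wild-type, 0.01, -0.79 and -0.02 in TRIF-KO, and -0.29, -0.91 and -0.23 in MyD88-KO. Atp5g2 was the lowest of them in all 3 genotypes, and their double-KO values at that time were 0.01, 0 and 0.16. These genes encode the same mature protein with different import signals, so their probes, unlike the proteins, can tell them apart. Other paired isoforms gave no common pattern: Cox4i2 was at 0.57 and 0.46 at 2 h and 4 h in wild-type and -0.58 at 16 h, and Cox7a1, the muscle form of its subunit, was between 0.1 and 0.44 in MyD88-KO until a value of -1.62 at 16 h. Cox7a2l, which helps to join complexes III and IV, was below 0 at 8 h in wild-type (-0.69), TRIF-KO (-0.88) and MyD88-KO (-0.52).

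**Figure D4:**
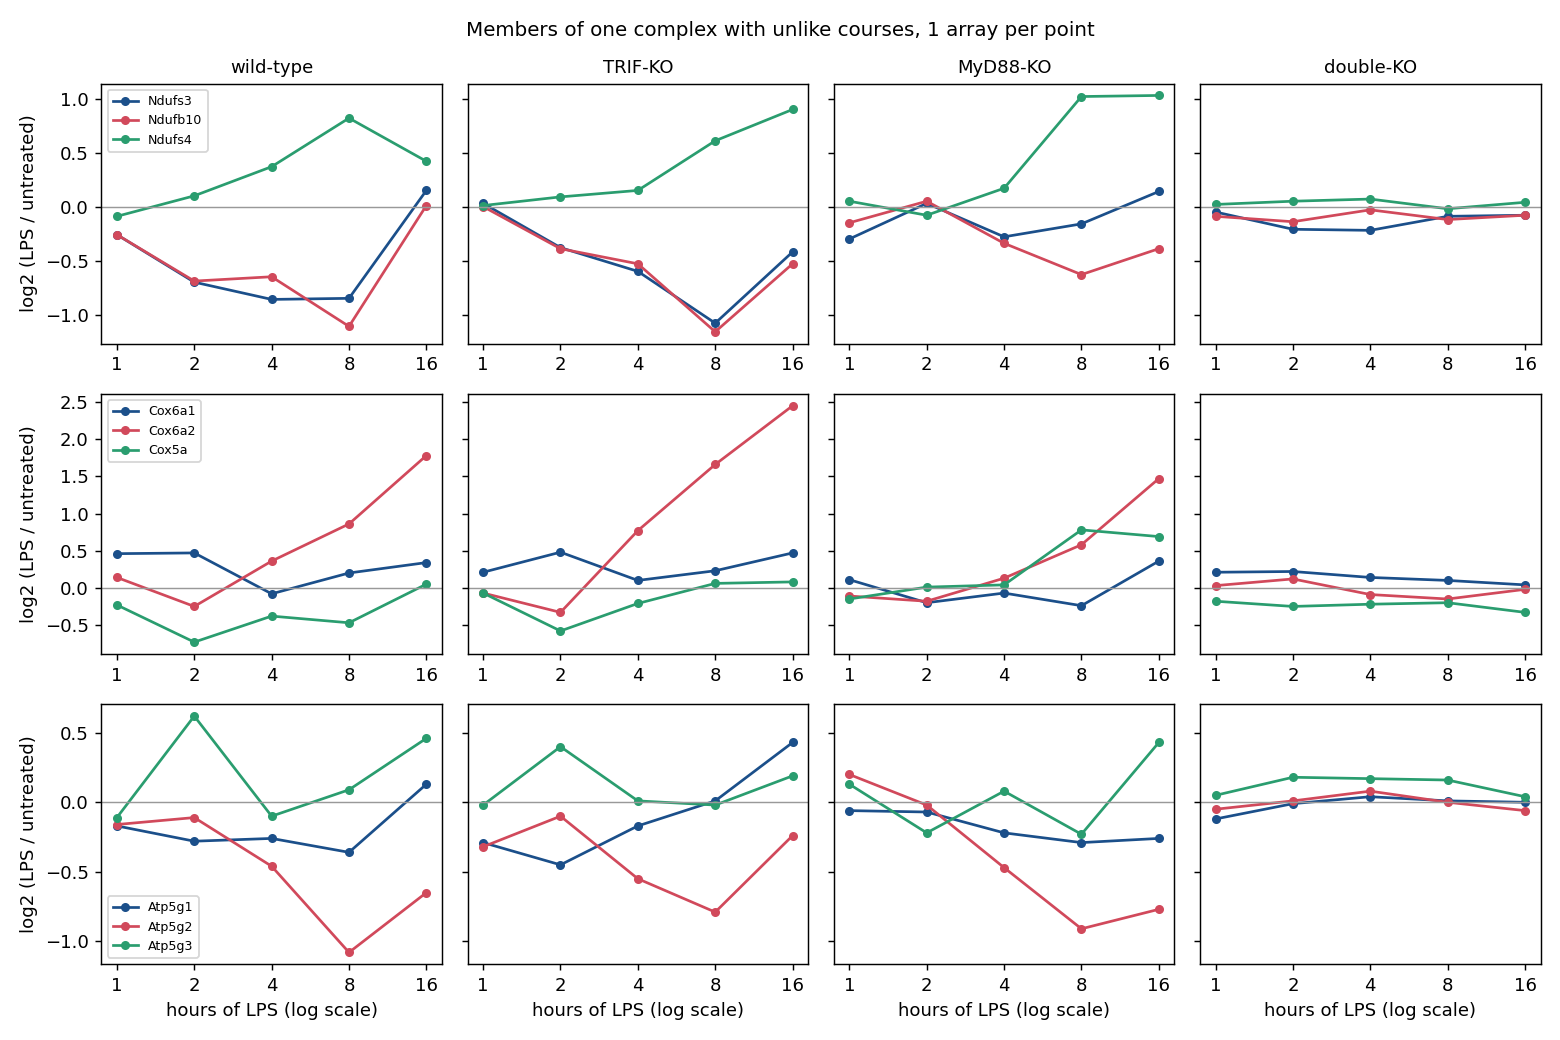
Log2 ratio of LPS-treated over untreated cells (y axis) against hours of LPS (x axis, log scale) for 3 genes each of complexes I, IV and V, 1 panel per genotype and 1 array per point. Ndufs4 reached 1.03 and Cox6a2 2.45 while Ndufb10 went down to -1.16 and Atp5g2 to -1.08, and double-KO values lie between -0.33 and 0.22.

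Without LPS, at most 1 member was called against wild-type in TRIF-KO or MyD88-KO, but more were in double-KO. No member was called for TRIF-KO against wild-type (limma; 0.44% of all genes; 3 members at an unadjusted p under 0.05), and 1 for MyD88-KO against wild-type (Ndufs4, -0.33 ± 0.1, adjusted p = 0.042; 10% of all genes). In double-KO 15 of 81 members differed from wild-type (18.5%), where 26.1% of all genes did, 8 higher and 7 lower. Among the higher were Uqcrfs1, the Rieske iron-sulphur protein of complex III (0.46 ± 0.09, adjusted p = 0.0015), Uqcrc2, Cox6b2 and Atp5sl (0.39 each). The lowest were Cox6a2 (-0.86 ± 0.22, adjusted p = 0.0093), Ndufs8 (-0.4 ± 0.12), Ndufa12 (-0.35 ± 0.11), Atp5e (-0.32 ± 0.1) and Cox4i1 (-0.27 ± 0.09). Sdha (0.33 ± 0.09) and Ndufv1 (0.3 ± 0.11) were also higher. Wild-type and double-KO lay on different slides and scan days, and with no time term 1 member was called for that pair. Without the 2, 4, 8 or 16 h arrays 9, 4, 2 and 8 members were called in double-KO, and the single call in MyD88-KO became 0 without those of 4, 8 or 16 h.

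Genes around the chain were read with the same fits. Of 76 mitochondrial ribosomal protein genes, 29 were higher at 16 h than at 8 h and none lower, as were 7 of 18 genes of the tricarboxylic acid cycle, 5 of 14 complex I assembly factors and 10 of 28 assembly factors of the other complexes, where 8.26% of all genes were called higher and 2.74% lower. Their median changes were 0.46, 0.44, 0.74 and 0.4, and these calls rest on the same few arrays, since without the wild-type or the TRIF-KO arrays 5 and 4 of all genes passed. The mean response in wild-type was below that of double-KO for 14 of the 76 ribosomal protein genes and above it for 1, while of 18 glycolysis genes 4 were above and none below, where 6.05% of all genes were called lower and 5.92% higher. Acod1 reached 5.15 and Hif1a, a regulator of glycolytic genes, 3.11 in wild-type, with differences from double-KO of 4.27 ± 0.61 (adjusted p = 0.0018, limma) and 1.74 ± 0.35 (adjusted p = 0.0099). In MyD88-KO Acod1 reached 6.42. Cycs, the cytochrome c that links complexes III and IV, had 1.43, 1.92 and 0.37 at 4, 8 and 16 h in wild-type and was lower at 16 h than at 8 h in the 3 genotypes (-1.28 ± 0.32, adjusted p = 0.03). Nrf1 itself was also lower then (-0.37 ± 0.1, adjusted p = 0.037), with wild-type log2 ratios of 0.23, 0.16, 0.42, 0.18 and -0.21. The untreated level of Acod1 differed from wild-type by -4.87 ± 0.27 in double-KO (adjusted p = 1.7e-08, limma) and by -1.6 ± 0.29 in MyD88-KO (adjusted p = 0.0044). For untreated Cycs these differences were -1.19 ± 0.09 and -0.54 ± 0.1 (adjusted p = 5e-07 and 0.0044), and untreated Hif1a was called in neither. Ratios of Acod1 and Cycs thus have unlike untreated references between genotypes.

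Of the 13 subunits encoded in mitochondrial DNA, none was called at 16 h against 8 h in either direction, and the genotypes differed in sign. Without ND6 their median log2 ratio at 8 h and 16 h was -0.76 and -0.6 in wild-type, -0.33 and 0 in TRIF-KO, and -0.18 and -1.42 in MyD88-KO, where nuclear members were at -0.15 and 0.11. The MyD88-KO array of 16 h thus had the lowest median, with values from -0.55 (COX1) to -2.64 (ND3, whose probe the files place on chromosome 1). Against double-KO the wild-type mean response was called lower for ND2 (-0.9 ± 0.26), COX1 (-0.45 ± 0.14), ATP6 (-0.87 ± 0.18) and ATP8 (-0.74 ± 0.16). ND6, the one protein gene read from the other strand of mitochondrial DNA, was called higher in wild-type (2.19 ± 0.48, adjusted p = 0.014, limma). Of all genes 6.05% were called lower and 5.92% higher there. COX1 was also called lower in TRIF-KO (-0.54 ± 0.14; 6.61% of all genes called in either direction). In MyD88-KO, COX1 (-0.47 ± 0.14) and ATP6 (-0.63 ± 0.18) were called lower (9.97% of all genes in either direction). The log2 ratios of ND6 were 2.07, 3.99, 3.27, 2.12 and 1.57 in wild-type, but double-KO reached 1.3 too. How RNA without the usual poly(A) tail was primed was not tested.

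**Figure D5:**
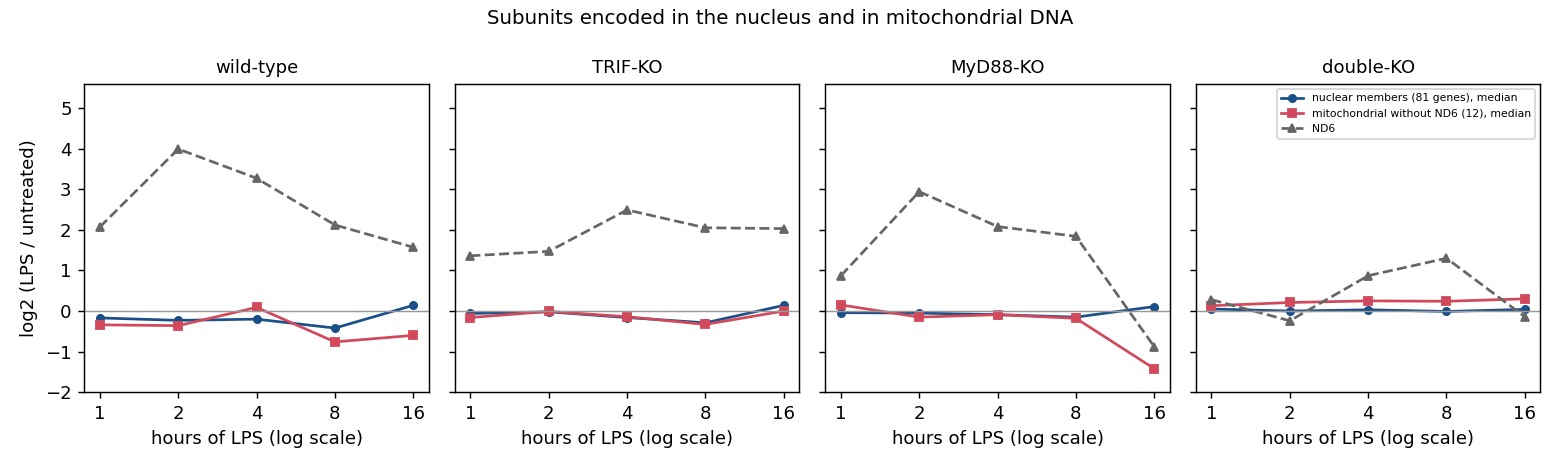
Log2 ratio of LPS-treated over untreated cells (y axis) against hours of LPS (x axis, log scale): median of the 81 nuclear members, median of 12 mitochondrially encoded subunits, and ND6 alone, 1 panel per genotype. At 16 h in MyD88-KO the nuclear median is 0.11 and the mitochondrial one -1.42, and ND6 stands at up to 3.99 in wild-type.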

How the data were processed

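RNA of mouse macrophages was measured on 20 arrays. Per the file headers, Agilent Feature Extraction 10.10.1.1 wrote the scanner output (probe positions on mm9). As deposited it holds mean, background and processed intensity of both channels, and log10 ratios. The deposited value table equalled the log10 ratios within 5e-10. From the intensities, limma 3.58.1 (R 4.3.3) computed log2 ratios and levels: normexp (offset 50), loess, and for levels quantile normalization of mean log intensity. Spots of a probe were averaged, and a gene was its brightest kept probe (22035 genes). The fits were lmFit and eBayes with time as a block, or with log2 time slopes, adjusted by Benjamini-Hochberg at 0.05. Same-time deviations correlated over 0.1 on all times between wild-type, TRIF-KO and MyD88-KO ratios (0.22 to 0.83) but not with double-KO (-0.19 to 0.13).

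Members and lists were chosen with earlier results of these data known. Named genes were a fixed set of subunits and isoforms plus, per test, all called members up to 10 or else the 5 highest and 5 lowest. Others were named after their values were seen. On simulated data with 100 genes changed by each size, the wild-type against double-KO fit recovered 77% of changes of 1 and 36% of 0.5, and the 16 h against 8 h fit 53% and 9%. The number of arrays limits the precision. The values of 1 member are not reported here.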

Additional observations from a re-analysis of the deposited data

Results flagged for a closer look

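In 4 of 100 sets of 5 values examined, 1 array stood apart from the other 4, where chance gives about 1 in 20. Cox7a2l was at -0.69 at 8 h in wild-type (others -0.12 to -0.04), Ndufv1 at -0.42 at 8 h in MyD88-KO (others -0.06 to 0.02), Sdhb at 0.99 at 16 h in MyD88-KO (others -0.23 to -0.03) and Cox7a1 at -1.62 at 16 h in MyD88-KO (others 0.1 to 0.44), all as log2 ratios.

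The response differed from that of double-KO by limma's test of the difference for 15 pairs of gene and genotype. In wild-type the log2 differences were -0.78 for Atp5sl, -0.52 for Ndufb8, -0.49 for Cox4i1 and for Atp5g2, -0.48 for Atp5e, -0.45 for Ndufb5, -0.41 for Atp5d and for Cox4nb, -0.37 for Ndufa3, -0.32 for Ndufv2, -0.29 for Ndufa7 and -0.21 for Sdhc. In TRIF-KO they were -0.83 for Atp5sl and 0.36 for Cox7c, and in MyD88-KO 0.51 for Cox5a. The slope of Cox6a2 differed by 0.74 in TRIF-KO.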

How the results depend on the processing

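Counts are of called members; those for the responses and slopes are given in the order wild-type, TRIF-KO, MyD88-KO. Against 12, 2 and 1 for the response differences from double-KO, there were 0, 0 and 0 with slide as a random or a fixed block and with the 2 groups alone. Scan day as a block gave 3 in wild-type and 10 in MyD88-KO, processed values 19 in wild-type, scaled ratios 8 in TRIF-KO and 4 in MyD88-KO. For MyD88-KO there were 0 with no filter on dim probes and 2 with every probe on its own, and for TRIF-KO 1 without Cox4nb, Atp5s and Atp5sl. Leaving out 1 time gave 0 to 23, 0 to 4 and 0 to 4.

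Against slopes of 5, 7 and 10, processed values gave 2, 3 and 4, scaled ratios 1, 1 and 1, slide as a fixed block 0, 0 and 0, slide as a random block 4 in TRIF-KO and 6 in MyD88-KO, and scan day 0 in MyD88-KO. Leaving out 1 time or the swapped array gave 2 to 15, 2 to 12 and 3 to 10. Slope differences (0, 1 and 0) were 1 in wild-type with hours in place of log2 hours. In TRIF-KO they were 2 with the mean of probes or every probe and 0 with slide blocks or scaled ratios. In MyD88-KO they were 1 with no background correction, no filter, the mean of probes or every probe, and 2 with scaled ratios. Leaving out 1 time gave 0 to 1, 0 to 1 and 0 to 4.

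With time as the replicate block, the slope differences were 2, 2 and 5. With no replicate block, the response differences were 1, 0 and 0, and the untreated differences 0 for MyD88-KO and 1 for double-KO. The ratios of double-KO did not deviate together with the others of the same time (correlations of -0.19 to 0.13), while its untreated levels did (0.14 to 0.68).

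Untreated differences (1 in MyD88-KO, 15 in double-KO) were 0 and 74 with processed values not normalized between arrays (member median -1.01), 0 and 0 with no quantile normalization, 0 and 2 with slide as a random block, 0 and 5 as a fixed block, and 0 and 9 with scan day. Double-KO had 5 with the 2 groups alone, and leaving out 1 time gave 0 to 2 and 2 to 16. The settings for the 16 h against 8 h contrast, and leaving out Cox4nb, Atp5s and Atp5sl, were chosen after seeing the data. The 27 members higher at 16 h became 10 with slide as a fixed block, 7 with scaled ratios, and 0 without the wild-type arrays, without the TRIF-KO arrays or with all 4 genotypes (19 to 23 with 1 time left out). The double-KO slopes and the untreated TRIF-KO level stayed at 0 in all settings run.

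Of 884 values of named genes, 487 kept direction and call, 388 lost the call and 9 reversed. With slide as a fixed block, Atp5sl (0.07) and Ndufb8 (0.7) reversed in wild-type against double-KO, and untreated Cox4i1 (0.06) in double-KO. With processed values the untreated levels of Ndufv1 (-0.76), Sdha (-0.75), Uqcrc2 (-0.65), Uqcrfs1 (-0.61), Cox6b2 (-0.43) and Atp5sl (-0.68) reversed in double-KO. Apart from the smaller number of arrays in some fits, the cause was not tested.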
